A study of Homo sapiens with 6 samples.

Results

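The 10 genes described here encode the chains of non-muscle myosin II and the proteins that switch its light chain on and off: the heavy chain genes MYH9, MYH10 and MYH14, the essential light chain gene MYL6, the regulatory light chain genes MYL9, MYL12A and MYL12B, the light chain kinase gene MYLK, the phosphatase subunit gene PPP1R12A and the kinase gene ROCK1. They were picked by name from a table of 58735 genes, in which each symbol matched 1 row. The set was chosen from the same comparison of sh-CBX7 with sh-Control that is described below, with its fold changes already known. The values of these 10 genes are therefore a description, and no p-value is given for them. A filter on low counts kept 14573 genes for testing, among them 9 of the 10. The gene left out was MYH14.

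The samples were RNA of 786-O cells, an established human clear cell renal carcinoma line that lacks working VHL protein in both groups. The groups were 3 libraries from cells labelled sh-Control and 3 libraries from cells labelled sh-CBX7. These labels name a short hairpin RNA, as a control or against CBX7, a Polycomb protein that reads a repressive histone mark. The deposited count columns say siCBX7 instead, so the kind of reagent is not settled here. The labels give neither a time point, nor the number of hairpins or clones, nor whether replicates were separate cultures, so the errors below measure only the spread between these libraries, which may be technical. Libraries held 16384151 to 18868874 counts. The targeted gene, CBX7, was counted 203, 240 and 183 times in sh-Control and 143, 111 and 142 times in sh-CBX7, which is -0.71 on the log2 scale (SE 0.13, adjusted p in edgeR = 5.41e-05). Of 9 markers listed for a renal carcinoma line, PAX8 had 282 CPM, VIM 1826 CPM and KRT8 865 CPM in sh-Control. PAX2 and MME were low there, at 7.17 and 17.5 CPM. In sh-CBX7, 4 of the 9 were higher and 3 lower at an adjusted p below 0.05 in edgeR, beside 53.3% of all tested genes. The lower ones were PAX8, PAX2 and CA12, the last with a log2 fold change of -1.22. sh-Control replicate 1 differed more from its group than any other library, with a chi-square per gene of 9.23 and 5.78 against the other 2 sh-Control libraries, where the remaining pairs within a group lay between 2.85 and 4.32.

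Non-muscle myosin II is the motor that pulls on actin filaments in stress fibres, in the cell cortex and in the contractile ring of dividing cells. Each molecule holds a pair of heavy chains, a pair of essential light chains and a pair of regulatory light chains. Phosphorylation of the regulatory light chain on a threonine and a serine side by side lets the molecule unfold, assemble into filaments and work on actin. Myosin light chain kinase, activated by calcium signals, and ROCK1 add the phosphate, and myosin phosphatase, brought to myosin by the PPP1R12A subunit, removes it. ROCK1 also inhibits that phosphatase.

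The 3 regulatory light chain genes differ in sequence, yet the stretch that holds the phosphorylated pair is shared, and it is shown here because the mix of these genes is what differed between the groups. Each line is coding sequence of 54 bases from GENCODE 29, 5′ to 3′, with the threonine and serine codons in capitals.
MYL9: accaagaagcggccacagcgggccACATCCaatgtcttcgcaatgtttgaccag
MYL12A: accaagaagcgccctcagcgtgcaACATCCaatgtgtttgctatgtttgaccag
MYL12B: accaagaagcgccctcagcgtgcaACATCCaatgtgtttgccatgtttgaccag
All lie in the second exon of their transcript, on GRCh38 at chr20:36544915-36544968 for MYL9, chr18:3253275-3253328 for MYL12A and chr18:3272929-3272982 for MYL12B, each on the plus strand. In this stretch MYL12A and MYL12B differed at 1 base and MYL9 differed from either at 7, with 0 differences in the encoded residues. Over the whole coding sequence MYL12A and MYL12B, which are neighbours on chromosome 18, were 95.2% identical, whereas MYL9 was 78.6% identical to MYL12A and 80.5% identical to MYL12B.

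The light chain genes were higher in sh-CBX7, MYL9 by far the most. MYH9, the most abundant heavy chain, was higher as well, whereas MYH10, MYLK and ROCK1 were lower and the libraries of PPP1R12A overlapped. Across all 14573 tested genes, 53.3% were called in the edgeR test at an adjusted p below 0.05, 26.1% as higher and 27.2% as lower in sh-CBX7. Of the 9 tested myosin II genes 8 were called, 5 as higher and 3 as lower. The same 8 genes had groups that did not overlap, against 59% of all tested genes. Since the genes were chosen from this comparison, nothing is read from these counts. The median log2 fold change of the 9 genes was 0.17, and that of all tested genes was -0.006.

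**Figure D1:**
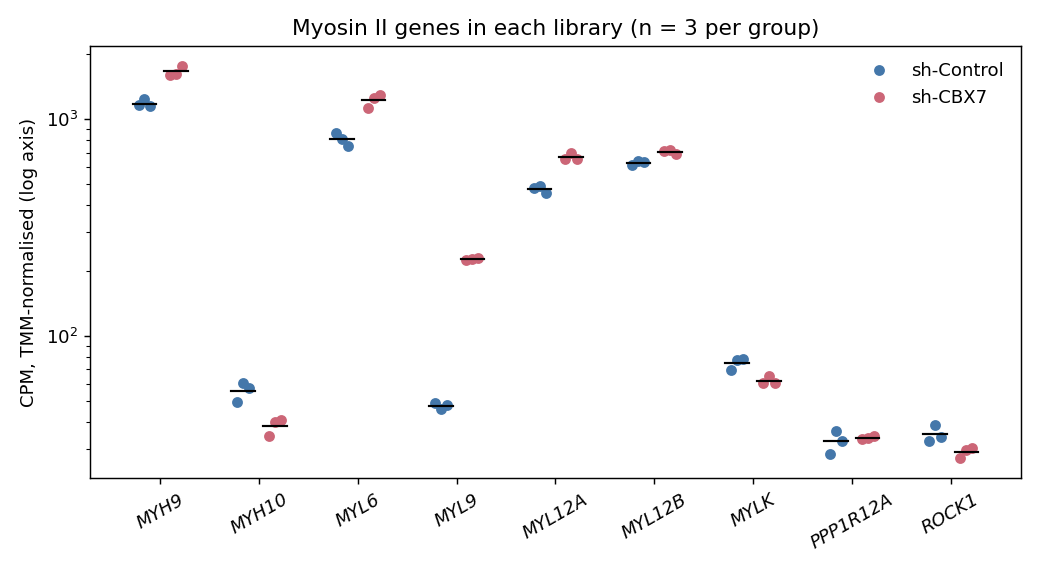
CPM of each myosin II gene in each library on a log axis, with 3 sh-Control libraries in blue, 3 sh-CBX7 libraries in red and black lines at the group means; MYH14, with 1 count in all, is not drawn. The MYL9 points of sh-CBX7 (224 to 228 CPM) lie far above those of sh-Control (45.8 to 48.9 CPM), while the PPP1R12A points overlap.

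MYL9 (ENSG00000101335; GRCh38 chromosome 20, 36541484 to 36551447, plus strand) encodes the regulatory light chain that is abundant in smooth muscle and contractile cells. Its counts were 813, 833 and 780 in sh-Control and 4212, 3755 and 4048 in sh-CBX7. As CPM, counts scaled to the size of each library, the sh-Control libraries held 48.9, 45.8 and 47.9 and the sh-CBX7 libraries 224, 227 and 228. The libraries of a group lay close together and the groups were far apart. The level was 47.5 ± 1.56 CPM in sh-Control and 226 ± 2.504 CPM in sh-CBX7 (SD, n = 3 each), a 4.76-fold difference with a log2 fold change of 2.25 (SE 0.06). Of the tested genes, 110 had a higher log2 fold change. The counts come from whole cultures, so a change in every cell and a larger change in some of the cells cannot be told apart, for this gene and those that follow.

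MYL12A (ENSG00000101608; chromosome 18, 3247481 to 3256236, plus strand) and MYL12B (ENSG00000118680; chromosome 18, 3261479 to 3278431, plus strand) encode the regulatory light chains that most cell types use. MYL12A stood at 483, 493 and 458 CPM in sh-Control and at 653, 696 and 652 CPM in sh-CBX7. Each sh-CBX7 library was above each sh-Control library, and the means were 478 ± 17.7 and 667 ± 25.3 CPM (SD, n = 3 each; log2 fold change 0.48, SE 0.05). MYL12B had 618, 640.0 and 632 CPM in sh-Control and 713, 723 and 691 CPM in sh-CBX7. Its groups were also separate, with the smallest difference of the called genes (629.9 ± 11.4 against 709 ± 16.5 CPM, log2 fold change 0.17, SE 0.05). The pair of neighbours thus differed in size, MYL12A by 1.396-fold and MYL12B by 1.13-fold. Whether those 2 fold changes differ from each other was not tested.

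MYL6 (ENSG00000092841; chromosome 12, 56158161 to 56163496, plus strand) encodes the essential light chain, which stiffens the lever arm of the heavy chain and is not phosphorylated to activate the motor. Its levels were 867, 813 and 753 CPM in sh-Control and 1131, 1254 and 1289 CPM in sh-CBX7. The lowest sh-CBX7 library was above the highest sh-Control library, and the log2 fold change was 0.59 (SE 0.06; 811 ± 57.2 against 1225 ± 83.4 CPM, SD, n = 3 each). MYL6 was spread more widely within each group (7.06% and 6.81% of the mean) than MYL9 (3.29% and 1.11%). Next to it lies MYL6B, a related light chain gene that shares 89 exonic bases with MYL6 on the same strand. MYL6B had 66.7 ± 3.83 CPM in sh-Control and 62.3 ± 2.36 CPM in sh-CBX7 (log2 fold change -0.10, SE 0.07, adjusted p in edgeR = 0.227).

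Among the heavy chains MYH9 (ENSG00000100345; chromosome 22, 36281277 to 36388067, minus strand), the gene of myosin IIA, made up nearly all of the level. It had 1164, 1234 and 1147 CPM in sh-Control and 1598, 1617 and 1769 CPM in sh-CBX7. The groups were apart by more than the spread within either (1181 ± 46.1 against 1661 ± 93.8 CPM, SD, n = 3 each; log2 fold change 0.49, SE 0.05).

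MYH10 (ENSG00000133026; chromosome 17, 8474205 to 8630761, minus strand), the gene of myosin IIB, differed the other way. It had 49.4, 60.9 and 57.3 CPM in sh-Control and 34.5, 39.9 and 40.9 CPM in sh-CBX7. The groups did not overlap, although the lowest sh-Control library, replicate 1, lay well below the other 2. The means were 55.8 ± 5.86 and 38.4 ± 3.41 CPM (SD, n = 3 each), a 1.455-fold lower level in sh-CBX7 with a log2 fold change of -0.54 (SE 0.08). MYH14 (chromosome 19, 50188186 to 50310544, plus strand), the gene of myosin IIC, had 1 count in sh-Control replicate 1 and 0 in the other 5 libraries. A count of 0 allows up to 3 counts, which is 0.159 to 0.184 CPM in those 5 libraries (counting error only). MYH14 was thus not detectable above that level in them. The bound does not cover sh-Control replicate 1, where the 1 count was 0.0601 CPM.

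MYLK (ENSG00000065534; chromosome 3, 123610049 to 123884331, minus strand) encodes the kinase dedicated to the regulatory light chain. Its levels were 69.5, 77.5 and 77.9 CPM in sh-Control and 60.3, 65.2 and 60.4 CPM in sh-CBX7. Each sh-CBX7 library was below each sh-Control library (74.96 ± 4.70 against 62.0 ± 2.77 CPM, SD, n = 3 each; log2 fold change -0.28, SE 0.07). ROCK1 (ENSG00000067900; chromosome 18, 20946906 to 21111851, minus strand) had 32.5, 38.8 and 34.2 CPM in sh-Control and 27.2, 29.7 and 30.2 CPM in sh-CBX7. The groups were separate by a small margin, and the log2 fold change was -0.28 (SE 0.09; 35.2 ± 3.23 against 29.004 ± 1.61 CPM). The call for ROCK1 rested on single libraries: without sh-Control replicate 2 its log2 fold change was -0.21 and without sh-CBX7 replicate 1 it was -0.23, and neither was called.

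PPP1R12A (ENSG00000058272; chromosome 12, 79773563 to 79935460, minus strand), which brings the phosphatase to myosin, had 28.5, 36.5 and 32.7 CPM in sh-Control and 33.3, 33.6 and 34.5 CPM in sh-CBX7. All 3 sh-CBX7 libraries lay inside the range of the sh-Control libraries. The log2 fold change was 0.05 (SE 0.09), and it was -0.03 without sh-Control replicate 1 and 0.14 without sh-Control replicate 2.

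**Figure D2:**
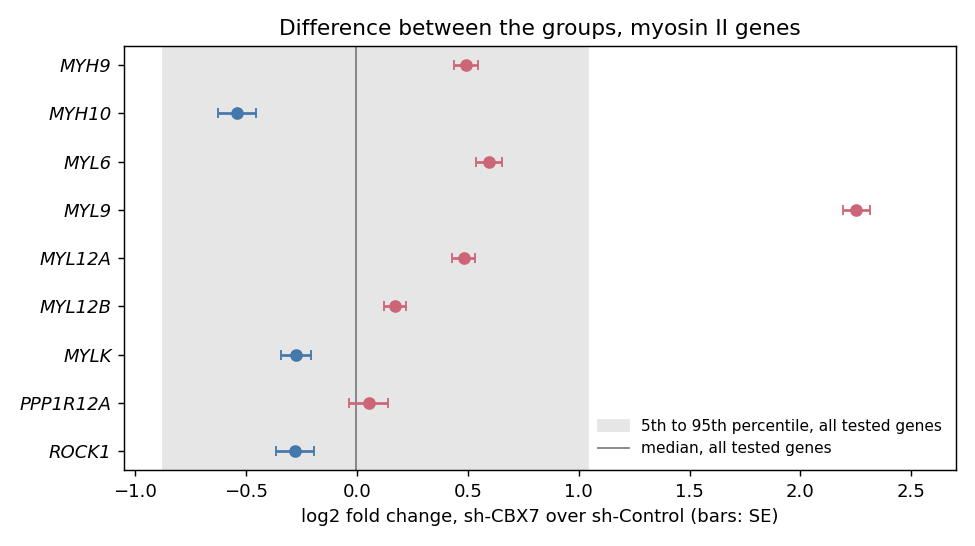
Log2 fold change of sh-CBX7 over sh-Control for the 9 tested myosin II genes, with bars of 1 SE and points in red above 0 and blue below it; the grey band holds the 5th to 95th percentile of all 14573 tested genes (-0.87 to 1.04) and the grey line their median. MYL9 at 2.25 lies outside the band and the other 8 genes lie inside it.

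The mix of regulatory light chain transcripts differed between the groups. Here counts were divided by gene length, so that levels can be set against each other as RPKM, the CPM per kilobase. MYL9 made up 3.57%, 3.25% and 3.495% of the 3 genes in the sh-Control libraries and 12.2%, 12.01% and 12.7% in the sh-CBX7 libraries. MYL12B made up 66.5% ± 0.82 in sh-Control and 56.2% ± 0.52 in sh-CBX7, and MYL12A 30.04% ± 0.83 and 31.5% ± 0.54 (SD, n = 3 each). The share of MYL9 was thus higher and that of MYL12B lower in each sh-CBX7 library, while MYL12B stayed the largest share in all 6. The lengths in the deposited table cover all annotated exons of a gene. With the length of 1 coding transcript in place of them, MYL9 took 1.85% ± 0.09 of the sum in sh-Control libraries and 6.74% ± 0.20 in sh-CBX7 libraries, so its size depends on the length used while its direction does not. Per kilobase of gene length, MYL9 stood at 0.1145 of the level of MYL12A in sh-Control and at 0.39 of it in sh-CBX7.

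Heavy chain transcripts were less mixed. MYH9 took 95.9%, 95.3% and 95.2% of the heavy chain level per kilobase in sh-Control and 97.9%, 97.6% and 97.7% in sh-CBX7. MYH10 took 4.51% ± 0.38 and 2.26% ± 0.15 (SD, n = 3 each). The ratio of MYH9 to MYH10 per kilobase was 23.6, 20.3 and 20.03 in the sh-Control libraries and 46.2, 40.5 and 43.3 in the sh-CBX7 libraries, 2.04-fold higher on average. With the coding transcript length the ratio was 21.6 ± 2.00 and 44.0 ± 2.91.

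**Figure D3:**
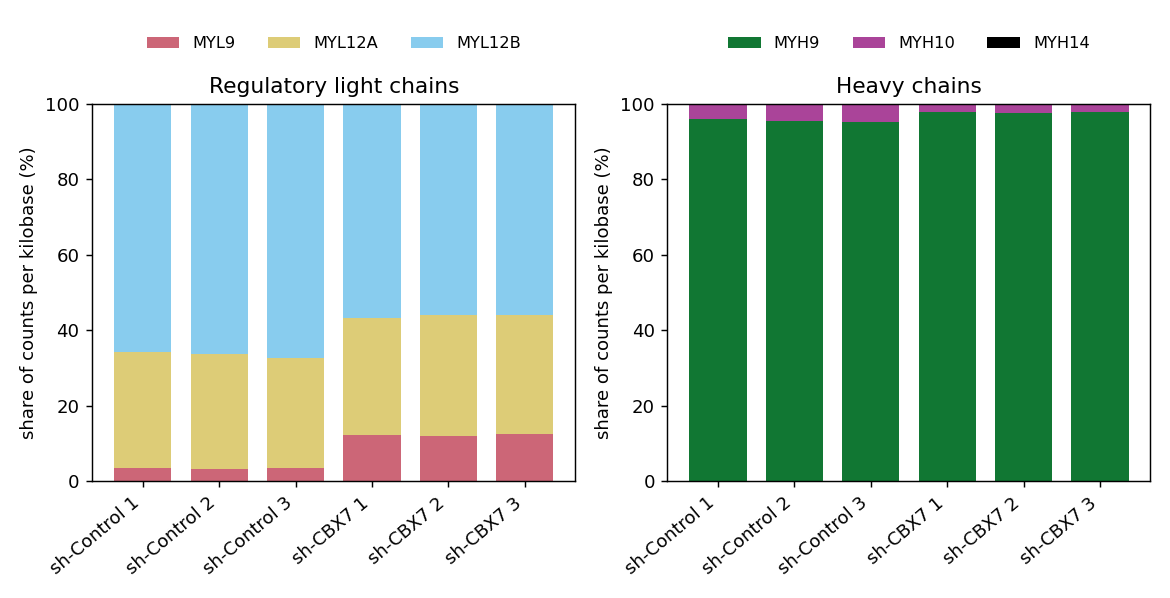
Shares of counts per kilobase of gene length in each library, for the regulatory light chain genes MYL9, MYL12A and MYL12B at left and the heavy chain genes MYH9, MYH10 and MYH14 at right. MYL9 takes 3.25% to 3.57% in sh-Control and 12.01% to 12.7% in sh-CBX7; MYH14 is too low to be seen.

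The summed levels of light and of heavy chains were higher in sh-CBX7 by similar ratios. The 3 heavy chain genes together had 137 ± 5.53 RPKM in sh-Control and 189 ± 10.7 RPKM in sh-CBX7, a ratio of 1.37, and the 3 regulatory light chain genes 490.2 ± 7.91 and 653 ± 15.1 RPKM, a ratio of 1.33 (SD, n = 3 each). Regulatory light chains over heavy chains per kilobase was 3.61, 3.48 and 3.63 in sh-Control and 3.59, 3.64 and 3.19 in sh-CBX7, and these ranges overlap. MYL6 over heavy chains was 1.28 ± 0.10 and 1.41 ± 0.06, also with overlapping libraries. MYLK over PPP1R12A, the kinase against the phosphatase subunit, was 1.31, 1.14 and 1.28 in sh-Control and 0.976, 1.04 and 0.941 in sh-CBX7, lower in each sh-CBX7 library. These are transcript levels, and the phosphorylation of the light chain was not measured.

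The cytoplasmic actin genes ACTB and ACTG1, whose products form the filaments on which myosin works, were lower in sh-CBX7. Named after their values were seen, they together stood at 25.7, 23.04 and 25.4 times the level of the heavy chains per kilobase in the sh-Control libraries. In the sh-CBX7 libraries this ratio was 2.02, 1.93 and 1.76. The ratio of cytoplasmic actin to myosin heavy chain transcripts was thus 13.0-fold lower in sh-CBX7, while the heavy chains alone were 1.37-fold higher. ACTA2, the smooth muscle actin gene, went the other way, from 2.06 ± 0.19 to 90.2 ± 4.55 RPKM, where ACTB stood at 167 ± 2.84 RPKM in sh-CBX7.

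Order of levels per kilobase of gene length in sh-Control was MYL12B (326 ± 5.90 RPKM), MYL6 (176 ± 12.4), MYL12A (147 ± 5.45), MYH9 (131 ± 5.11), MYL9 (16.8 ± 0.55), MYH10 (6.197 ± 0.65), MYLK (3.38 ± 0.21), ROCK1 (3.17 ± 0.29) and PPP1R12A (2.73 ± 0.33; SD, n = 3). MYLK and ROCK1, and ROCK1 and PPP1R12A, were neighbours in this order whose libraries overlapped. In sh-CBX7 MYL12B, MYL6, MYL12A, MYH9 and MYL9 kept ranks 1 to 5. There MYH9 had 184 ± 10.4 RPKM and MYL9 80.2 ± 0.89, followed by MYH10 (4.27 ± 0.38), PPP1R12A (2.83 ± 0.0546), MYLK (2.795 ± 0.125) and ROCK1 (2.61 ± 0.15), and the libraries of PPP1R12A and MYLK overlapped. The length used decides the top of the order and part of its lower end. The annotated length of MYL6 is 4609 bases and its coding transcript has 901. With the latter MYL6 came first, with 900.2 ± 63.5 RPKM in sh-Control against 504 ± 9.13 for MYL12B. With coding transcript lengths MYH10 in sh-CBX7 (5.02 ± 0.44) lay below MYLK (6.18 ± 0.28) and PPP1R12A (5.91 ± 0.11). In sh-Control MYLK (7.48 ± 0.47) then stood above MYH10 (7.29 ± 0.76), with overlapping libraries.

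Within sh-Control, PPP1R12A, MYH10, ROCK1 and MYLK were lowest in the same library. In sh-Control replicate 1 the log2 CPM of PPP1R12A, MYH10, ROCK1 and MYLK lay 0.184, 0.171, 0.109 and 0.106 below the group mean. In sh-Control replicate 2 PPP1R12A, ROCK1 and MYH10 lay 0.17, 0.144 and 0.13 above it. MYL6 went the other way, 0.0991 above its group mean in sh-Control replicate 1. In sh-CBX7 replicate 1 MYH10, ROCK1, MYLK and PPP1R12A were again lowest of their group, at -0.15, -0.0924, -0.0373 and -0.0231. So were MYL6, MYH9 and MYL9 in that library, at -0.113, -0.0547 and -0.0174. MYL9 lay within 0.0522 of its group mean in all 6 libraries. Without sh-Control replicate 1, which stands apart across all genes, the log2 fold change was 2.27 for MYL9, 0.65 for MYL6, 0.48 for MYH9 and -0.62 for MYH10.

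**Figure D4:**
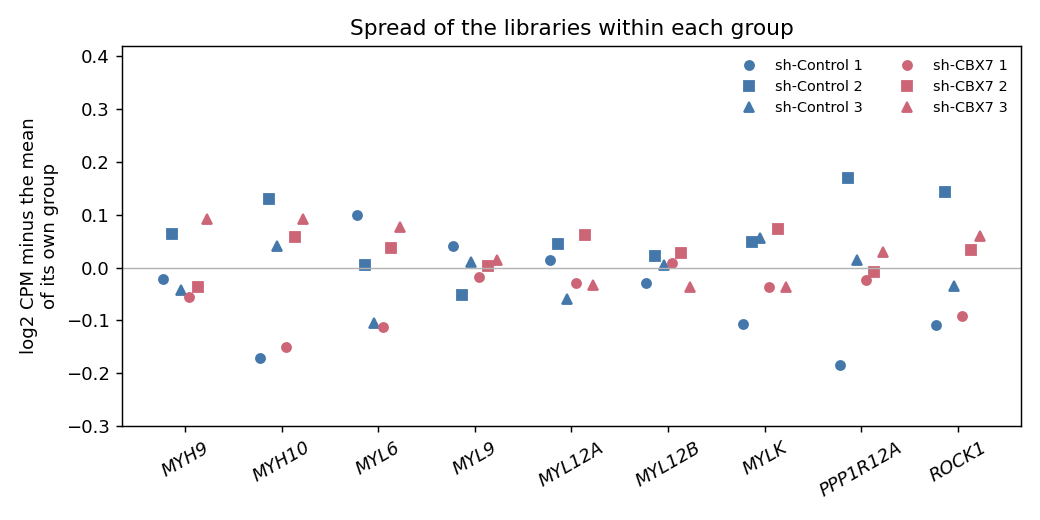
Log2 CPM of each myosin II gene in each library minus the mean of its own group, with sh-Control in blue, sh-CBX7 in red and a symbol for each replicate number. PPP1R12A spans -0.184 to 0.17 in sh-Control, while all MYL9 points lie within 0.0522 of 0.

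Most of the transcript sequence of these genes was not shared with other genes. Of the 75-base windows of the coding transcript, a share of 9.54% of ROCK1 occurred letter for letter in ROCK1P1, a partial copy, and 1.93% or less for each of the other genes in any transcript of another gene. ROCK1P1 had 11 to 17 counts per library. For MYL12A and MYL12B the shared windows were 1.13% and 0.511%, with each other or with the copies MYL12AP1 and MYL8P. The 8 processed pseudogenes of MYL6, MYL12A and MYL12B had at most 5 counts in a library, and 3 of them had 0 in all. Because the strand setting of the counting is not given in the sources used here, reads of antisense neighbours cannot be told apart where exons overlap. Those overlaps were 514 bases of MYL6 with SMARCC2, 406 of PPP1R12A with PPP1R12A-AS1, 133 of MYLK with MYLK-AS1 and 72 of MYH10 with NDEL1, 457 of MYH14 with AC008655.1, 175 of MYL12A with AP005329.1, and 97 or fewer for the rest. Summed over the 6 libraries NDEL1 had 6136 counts and SMARCC2 4435, while AP005329.1 had 20 and AC008655.1 had 0. MYLK-AS1 had 14 to 37 counts per library and PPP1R12A-AS1 11 to 25, against at least 1070 for MYLK and 474 for PPP1R12A.

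Promoters were searched for the CArG box, the site of serum response factor (SRF), which drives many genes of the contractile apparatus. RefSeq promoters (GRCh38.p14; 250 bases before to 50 after a start site) matched 9 of the 10 genes, with 16 start sites; MYL9 had no entry. A box was found on either strand in 1 of the 16, that of an internal start of MYLK, and in 1.29% of all 35116 promoters. It begins at position -94 from that start, within chr3:123620613-123620662 on the minus strand, and is in capitals with its neighbouring bases.
MYLK internal start: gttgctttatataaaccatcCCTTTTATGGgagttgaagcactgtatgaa
Such a match is a description of these windows, and counts per gene do not show which start of MYLK was used.

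The 3′ untranslated regions were searched for CTCTGCT and TCGGAGA, a pair of 7-base sequences picked from earlier results of these data. CTCTGCT occurred in 20.9% and TCGGAGA in 1.97% of 12128 tested genes with a coding transcript. Of the 10 myosin II genes MYH9 and MYH14 held CTCTGCT, once each, and none held TCGGAGA in the transcript searched. Both sites are shown with the 7 bases in capitals, in the last exon of MYH9 (exon 41, chr22:36282474-36282496, minus strand) and of MYH14 (exon 42, chr19:50310157-50310179, plus strand).
MYH9: ttggcttcCTCTGCTgcatcccc
MYH14: cccattccCTCTGCTtctctctc
MYL9, the gene with the largest difference, held neither sequence.

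The genes whose pattern over the 6 libraries was most like that of the 3 myosin II genes with the highest RPKM were found by the root mean square difference of centred log2 CPM, among 10752 genes with at least 5 CPM. For MYL12B these were ETV1, RAB11A and DNAJA1, at 0.0134 to 0.0146. For MYL6 they were PSMB9, GNA11 and TRAPPC6A, at 0.0382 to 0.0525, and for MYL12A PPP1R2, ASAH1 and ADAM17, at 0.0145 to 0.0283. None of the 9 encodes a part of myosin II. The measure is taken over only 6 libraries in 2 groups, so it reflects mainly a fold change of like size.

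Other genes that control the light chain were examined as lists, whose counts stand beside the 53.3% of all tested genes that were called. On the myosin phosphatase list, of 9 tested genes 6 rose and 0 fell, and the median log2 fold change was 0.29 (without sh-Control replicate 2, 1 fell). PPP1R18, which binds the phosphatase catalytic subunit, rose from a mean of 154 ± 7.98 to one of 319.8 ± 11.97 CPM (SD, n = 3 each; log2 fold change 1.06, SE 0.06, adjusted p in edgeR = 8.25e-13). PPP1CB, the catalytic subunit found in myosin phosphatase, rose by 0.72, the related targeting subunit PPP1R12C by 0.55 and the inhibitor PPP1R14B by 0.68 on the log2 scale. The 3 not called were the catalytic subunits PPP1CA (log2 fold change -0.10) and PPP1CC (0.01) and the targeting subunit PPP1R12B (0.18). PPP1R12A, with overlapping groups, thus sat beside subunits and an inhibitor that rose and beside subunits that were not called.

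Among other kinases of the light chain and their activators, 5 of 13 tested rose and 3 fell (median 0.21). DAPK3, a kinase that phosphorylates both the light chain and the phosphatase subunit, rose from a mean of 123 ± 11.2 to one of 229 ± 13.6 CPM (SD, n = 3 each; log2 fold change 0.90, SE 0.07, adjusted p in edgeR = 1.47e-10). The kinase PAK1 rose by 0.42 on the log2 scale, while DAPK1 had a log2 fold change of -0.44. The other members of the MYLK family were barely detected, with at most 13 counts in a library for MYLK2, MYLK3 and MYLK4.

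On the mixed list of myosin folding, filament assembly and binding genes, 13 of 22 tested fell, 7 rose and the median was -0.47. The number that rose was 4 without sh-Control replicate 2, sh-Control replicate 3 or sh-CBX7 replicate 3. SVIL, a myosin- and actin-binding protein of the cortex, fell from a mean of 71.5 ± 5.49 to one of 22.1 ± 1.55 CPM (SD, n = 3 each; log2 fold change -1.69, SE 0.08, adjusted p in edgeR = 6.64e-14). HSP90AA1, a chaperone of myosin folding, fell by 1.06 on the log2 scale. Against these, the actin- and myosin-binding proteins caldesmon, CALD1, and calponin 2, CNN2, rose by 1.43 and 0.73. The folding gene UNC45A was called higher as well, by 0.20 (adjusted p in edgeR = 0.0195), and so was S100A4, by 0.67 (adjusted p in edgeR = 0.0218). S100A4 was low, at 2.06 ± 0.57 CPM in sh-Control and 3.29 ± 0.32 CPM in sh-CBX7. Whether UNC45A and S100A4 kept their calls when a library was left out was not examined gene by gene.

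**Figure D5:**
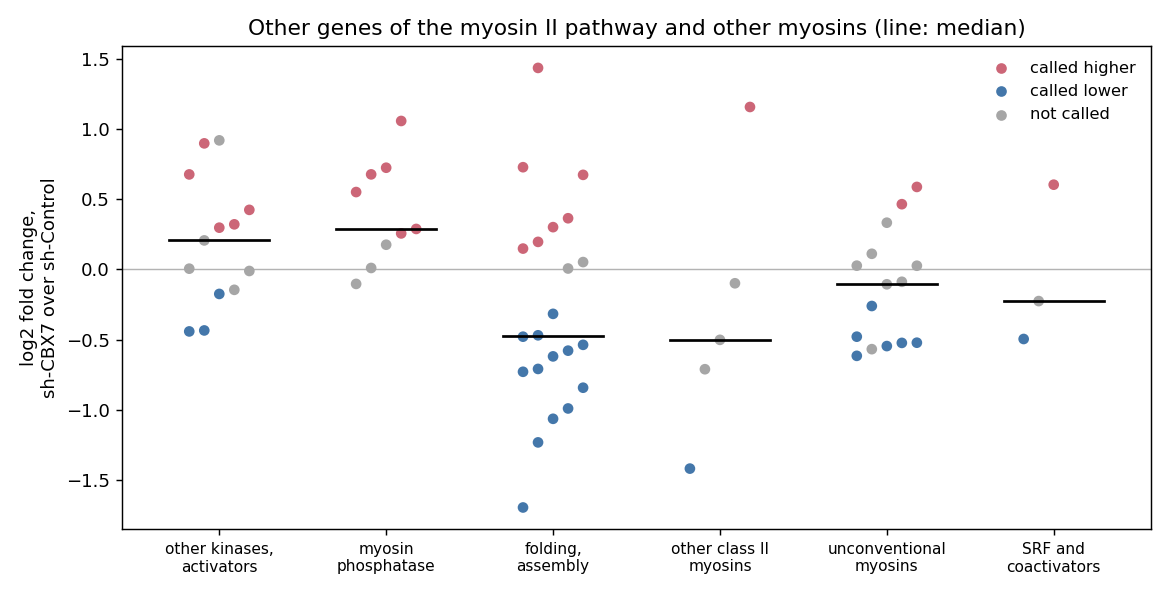
Log2 fold change of sh-CBX7 over sh-Control for each tested gene of 6 lists, in red where called higher, blue where called lower and grey where not called, with black lines at the list medians. Phosphatase genes lie mostly above 0 (6 higher, 0 lower) and folding and assembly genes mostly below it (7 higher, 13 lower).

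Other myosins were compared with the 10 genes. Of 21 muscle-type heavy and light chain genes in the table, 8 had 0 counts in all libraries and 5 were tested. MYL5 fell from a mean of 7.59 ± 1.11 to one of 2.81 ± 0.84 CPM (SD, n = 3 each; log2 fold change -1.42, SE 0.19, adjusted p in edgeR = 1.93e-06). MYH16, an annotated pseudogene, was called higher at a level below 1 CPM (0.333 to 0.744), and lost its call when any 1 of the 6 libraries was left out. Of 15 tested myosins outside class II, 6 fell and 2 rose (median -0.11), so 53.3% were called, the share of all tested genes. MYO19, MYO1E, MYO6 and MYO5B had log2 fold changes of -0.52, -0.52, -0.55 and -0.62.

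SRF and its coactivators were read because several myosin genes are known SRF targets. SRF rose from a mean of 94.96 ± 2.24 to one of 144 ± 9.93 CPM (SD, n = 3 each; log2 fold change 0.60, SE 0.06, adjusted p in edgeR = 3.29e-08). The coactivator MRTFA fell by 0.50 on the log2 scale. MRTFB had a log2 fold change of -0.23 and was not called, except without sh-Control replicate 1 (-0.31), and MYOCD had 0 counts in all libraries.

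Markers of smooth muscle, where MYL9 is abundant, moved in the same direction in sum but not gene by gene. The summed level of 10 markers was 98.4 to 106 CPM in sh-Control and 351 to 378 CPM in sh-CBX7. Of 6 tested, 3 were called higher and 1 lower, beside 53.3% of all tested genes called. Those higher were ACTA2, SYNPO2 (2.07 CPM in sh-Control and 6.80 in sh-CBX7) and TAGLN (1.75 and 3.29 CPM). The lower one was LMOD1 (0.727 and 0.135 CPM). In sh-Control most of the sum was SMTN (90.4 CPM, and 84.9 in sh-CBX7, not called), and in sh-CBX7 most was ACTA2, the smooth muscle actin gene, at 6.14 ± 0.57 CPM in sh-Control and 268.5 ± 13.5 CPM in sh-CBX7 (SD, n = 3 each). The defining markers MYH11, DES and CNN1 stayed at or below 0.399 CPM in the mean of either group and MYOCD was at 0. Skeletal and cardiac muscle markers summed to at most 1.45 CPM in any library, with 5 of 10 at 0, and endothelial markers to at most 5.25 CPM. Fibroblast markers summed to 9.02 to 10.4 CPM in sh-Control and 9.42 to 10.9 CPM in sh-CBX7. Immune markers summed to 8.78 to 8.96 and 16.9 to 19.8 CPM, most of it CSF1R, with PTPRC, CD3E and HBB at 0. The part of any of these cell types in the values of the myosin II genes was not tested.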

How the data were processed

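Messenger RNA was sequenced in 6 libraries. The authors deposited read counts per gene, as whole, unscaled numbers. According to the submitters' processing notes, HISAT2 2.0.5, featureCounts 1.5.0-p3, FastQC, Trimmomatic and the build hg19 were used; strand and multi-mapping settings are not given in the sources used here. Gene coordinates in the deposited table equal those of GENCODE 29 on GRCh38 for 99.98% of genes. Its columns say siCBX7 and control; they were matched to the labels by target and replicate number. The deposited gene length (unit: other, in bases) was used for RPKM.

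Counts were filtered with filterByExpr, scaled with TMM and tested with glmQLFTest in edgeR 4.0.16 (R 4.3.3), unpaired, over all 14573 genes, with Benjamini-Hochberg adjustment and calls below 0.05. Some genes and 1 of the lists are not reported here. The SE is the log2 fold change divided by the square root of F. CPM and RPKM are TMM-scaled. Replicate numbers were not taken as pairs, because the labels name no shared batch. The deviations of same-numbered libraries correlated at 0.149, 0.186 and 0.0503, and those of unlike numbers at -0.193 to 0.049. The replicate number was therefore also used as a block, as an alternative. The test was also run on simulated counts in which few genes were changed. That run does not check it at the large share of genes called here, and its outcome is not reported. Genes and lists were chosen with earlier results of these data known. The genes named are the 10 genes, CBX7, up to 4 genes of smallest p per list, annotated copies and antisense genes, and the genes of nearest pattern. Others are named for their level or role after their values were seen (MYLK2, MYLK3, MYLK4, ACTB, ACTG1, UNC45A, S100A4, PPP1CA, PPP1CC, PPP1R12B and markers). Alternatives were DESeq2 1.42.0, limma 3.58.1 voom, other scalings and filters, a replicate block and leaving out each library; the coding transcript length was added after seeing the data.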

Additional observations from a re-analysis of the deposited data

How the results depend on the processing

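The call of 8 of the 9 tested myosin II genes was the same under 14 alternatives, the exception being ROCK1 (below); PPP1R12A, not called in any of them, was -0.03 without sh-Control replicate 1, against 0.05. MYL9 ranged from 2.22 to 2.30 on the log2 scale. Without 1 library ROCK1 ranged from -0.33 to -0.21. With the replicate number as a block, 5 myosin II genes were higher and 3 lower, as without it; the count of all tested genes higher was 3972 and of all tested genes lower 4126, against 3799 and 3967. Same-numbered libraries shared deviations at correlations of 0.149, 0.186 and 0.0503, each library correlating best with its own number, which is a hint from the data only. MYH16, the 1 muscle-type gene called higher, was lost (count 0) with no low count filter, at least 1 CPM in 3 libraries, DESeq2, limma voom and the replicate block, and the count was 0 to 0 without 1 library. Without 1 library, phosphatase genes called lower ranged from 0 to 1, assembly genes called higher from 4 to 7, and SRF factors called lower from 1 to 2. As shares of raw counts, MYL9, MYL12A and MYL12B were 4.11%, 41.4% and 54.5% in sh-Control and 14.1%, 41.6% and 44.3% in sh-CBX7; with the coding transcript length they were 1.85%, 42.7% and 55.4%, and 6.74%, 45.6% and 47.7%. The size of a share thus depends on the length used, while on each scale the share of MYL9 was higher in sh-CBX7. The SE ranged from 0.05 (MYL12B) to 0.09 (ROCK1 and PPP1R12A), and MYH14 had too few counts to be tested.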
